A study of Mus musculus with 6 samples.

Results

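The genes described here write, read and erase cytosine methylation in mouse embryonic stem cells: Dnmt1, Dnmt3a, Dnmt3b, Dnmt3l, Uhrf1, Tet1 and Tet2. Every probe set annotated to these 7 genes was taken, which gave 19 of the 45037 probe sets tested, against 18193 genes with a probe set of their own in the whole table. Each probe set was read on all 6 Affymetrix mouse arrays. The cells are of a 129/B6 hybrid background and came from 3 clones, each with and without 4-hydroxytamoxifen (OHT). The groups were Yaf2kd OHT+ (2 arrays, clones 3086 and 3087), Yaf2kd OHT- (2 arrays, the same clones), Yaf2wt OHT+ (1 array, clone 3031) and Yaf2wt OHT- (1 array, the same clone). OHT+ cells received 0.8 µM OHT over 24 h, given to deplete Rybp. The labels do not give the time of harvest. Yaf2kd is called a knockdown in the sample titles and a mutant in the genotype field. All cultures had leukaemia inhibitory factor, on feeder fibroblasts or on gelatin, and the surface of each sample is not given. Because Yaf2wt is a single clone, Yaf2 status and clone cannot be told apart.

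In mammals, Dnmt3a and Dnmt3b place methyl groups on unmethylated CpG sites, and Dnmt3l is a partner without catalytic activity that stimulates both. Dnmt1 copies the pattern onto the new strand at replication, and Uhrf1 reads DNA methylated on one strand and brings Dnmt1 to it. Tet1 and Tet2 oxidise methylated cytosine, which starts its removal, and both are expressed in embryonic stem cells. Rybp and Yaf2 are related subunits of Polycomb repressive complex 1, which modifies histone H2A.

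The 250 bases before a start site are shown for 4 members, Dnmt3l, Tet1, Dnmt3b and Tet2, because the OHT and Yaf2 differences described below turn on them. The sequences are RefSeq's, build GRCm38.p6, 5′ to 3′ on the strand of the gene. They lie at chr10:78042037-78042286 (plus strand, Dnmt3l), chr10:62887325-62887574 (minus strand, Tet1), chr2:153649199-153649448 (plus strand, Dnmt3b) and chr3:133544391-133544640 (minus strand, Tet2). For Dnmt3l the table lists 3 start sites, and the window shown is that of the outermost. Capitals mark the E2F core TCCCGC or its reverse complement GCGGGA.
Dnmt3l: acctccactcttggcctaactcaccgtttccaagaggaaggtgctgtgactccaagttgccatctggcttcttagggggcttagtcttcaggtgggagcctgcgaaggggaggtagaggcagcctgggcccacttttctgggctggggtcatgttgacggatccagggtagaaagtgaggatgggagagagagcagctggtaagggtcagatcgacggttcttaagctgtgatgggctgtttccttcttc
Tet1: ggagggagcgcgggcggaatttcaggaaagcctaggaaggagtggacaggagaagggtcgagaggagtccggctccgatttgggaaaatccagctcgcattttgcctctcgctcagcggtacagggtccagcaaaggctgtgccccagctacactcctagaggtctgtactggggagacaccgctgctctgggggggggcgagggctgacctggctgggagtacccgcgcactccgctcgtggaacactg
Dnmt3b: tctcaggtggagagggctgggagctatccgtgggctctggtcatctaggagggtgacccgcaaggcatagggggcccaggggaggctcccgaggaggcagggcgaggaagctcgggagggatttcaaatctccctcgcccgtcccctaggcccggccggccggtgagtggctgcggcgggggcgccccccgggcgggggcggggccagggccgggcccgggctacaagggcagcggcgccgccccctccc
Tet2: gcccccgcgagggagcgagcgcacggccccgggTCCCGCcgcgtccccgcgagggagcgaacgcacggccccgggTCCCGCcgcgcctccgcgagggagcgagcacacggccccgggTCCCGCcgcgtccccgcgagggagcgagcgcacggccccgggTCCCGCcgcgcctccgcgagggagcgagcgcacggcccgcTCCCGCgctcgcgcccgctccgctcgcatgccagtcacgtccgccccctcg

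All 7 members had such a window. The Tet2 window holds 51 CpG sites, and 0.067% of the 32851 mouse windows hold as many. The Dnmt3a window holds 38 CpG sites, Dnmt3b 21, Tet1 15, Uhrf1 10, Dnmt3l 5 and Dnmt1 2, beside a median of 6 over all windows. Dnmt1 and Dnmt3a, like Dnmt3l, have 3 listed start sites, and Uhrf1 has 2. For these genes the counts of CpG sites and of matches hold for the outermost window only. The E2F core, searched on both strands, matched 5 times in Tet2, 2 times in Dnmt3a and 1 time in Uhrf1, and 16.9% of all windows hold it. The E-box CACGTG, the letters bound by Myc and related factors and the same on both strands, matched in 0 of the 7 windows and in 6.02% of all. A match is a description of the letters, and 0 matches says only that these letters are not in the window.

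The labels were first checked against the targeted genes. One Rybp probe set (1421111_at) read 101, 53.9 and 102 on the OHT+ arrays of clones 3086, 3087 and 3031, against 1785, 2262 and 1997 on their OHT- arrays. The other (1428219_at) read 3443, 2796 and 3247 with OHT, against 211, 336 and 179.9 without. The annotation assigns the pair to Rybp plus its pseudogene Rybp-ps. The first fell and the second rose with OHT, with log2 differences of -4.61 ± 0.24 and 3.75 ± 0.20 (± SE, limma adjusted p 1.1e-04 each). They tell OHT+ from OHT- arrays but do not measure intact Rybp RNA. The 2 Yaf2 probe sets held 34.9% and 37.7% of the Yaf2wt mean on the Yaf2kd arrays, with every Yaf2kd array below both Yaf2wt arrays and adjusted p of 0.163 and 0.167. All 8 embryonic stem cell markers had means above 96.6, the intensity that separates the dimmer 50% of probe sets, called dim here, from the rest.

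Across the 19 probe sets, 0 passed an adjusted p of 0.05 in any of the 4 comparisons made with limma over all 45037 probe sets. These fits have no clone term, so they set aside the pairing of OHT+ and OHT- arrays by clone. With the clone as a replicate block, an alternative, Tet1 1429448_s_at passed over the 3 clones (limma adjusted p 0.0138), where 0.224% of all probe sets did. In the OHT comparison over the 3 clones without the block, 0.14% of all probe sets passed. At an unadjusted p under 0.05, 2 of the 19 were higher with OHT (all probe sets 4.03%) and 3 of the 19 were lower (all probe sets 3.96%), together 5 of 19 beside 7.99%. That share is above the background, but probe sets of one gene are not independent and the excess was not tested. The median log2 difference of the 19 was 0.00185, beside -0.00731 over all probe sets, with 10 higher and 9 lower. The OHT differences of members ran between -0.36 and 0.67. With 3 arrays against 3, an exact permutation test of a single probe set that ignores the clone pairs cannot go below 0.1. A test that keeps the pairs has fewer arrangements and a higher floor. In bulk RNA, fewer cells of a type and less RNA per cell cannot be told apart.

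**Figure D1:**
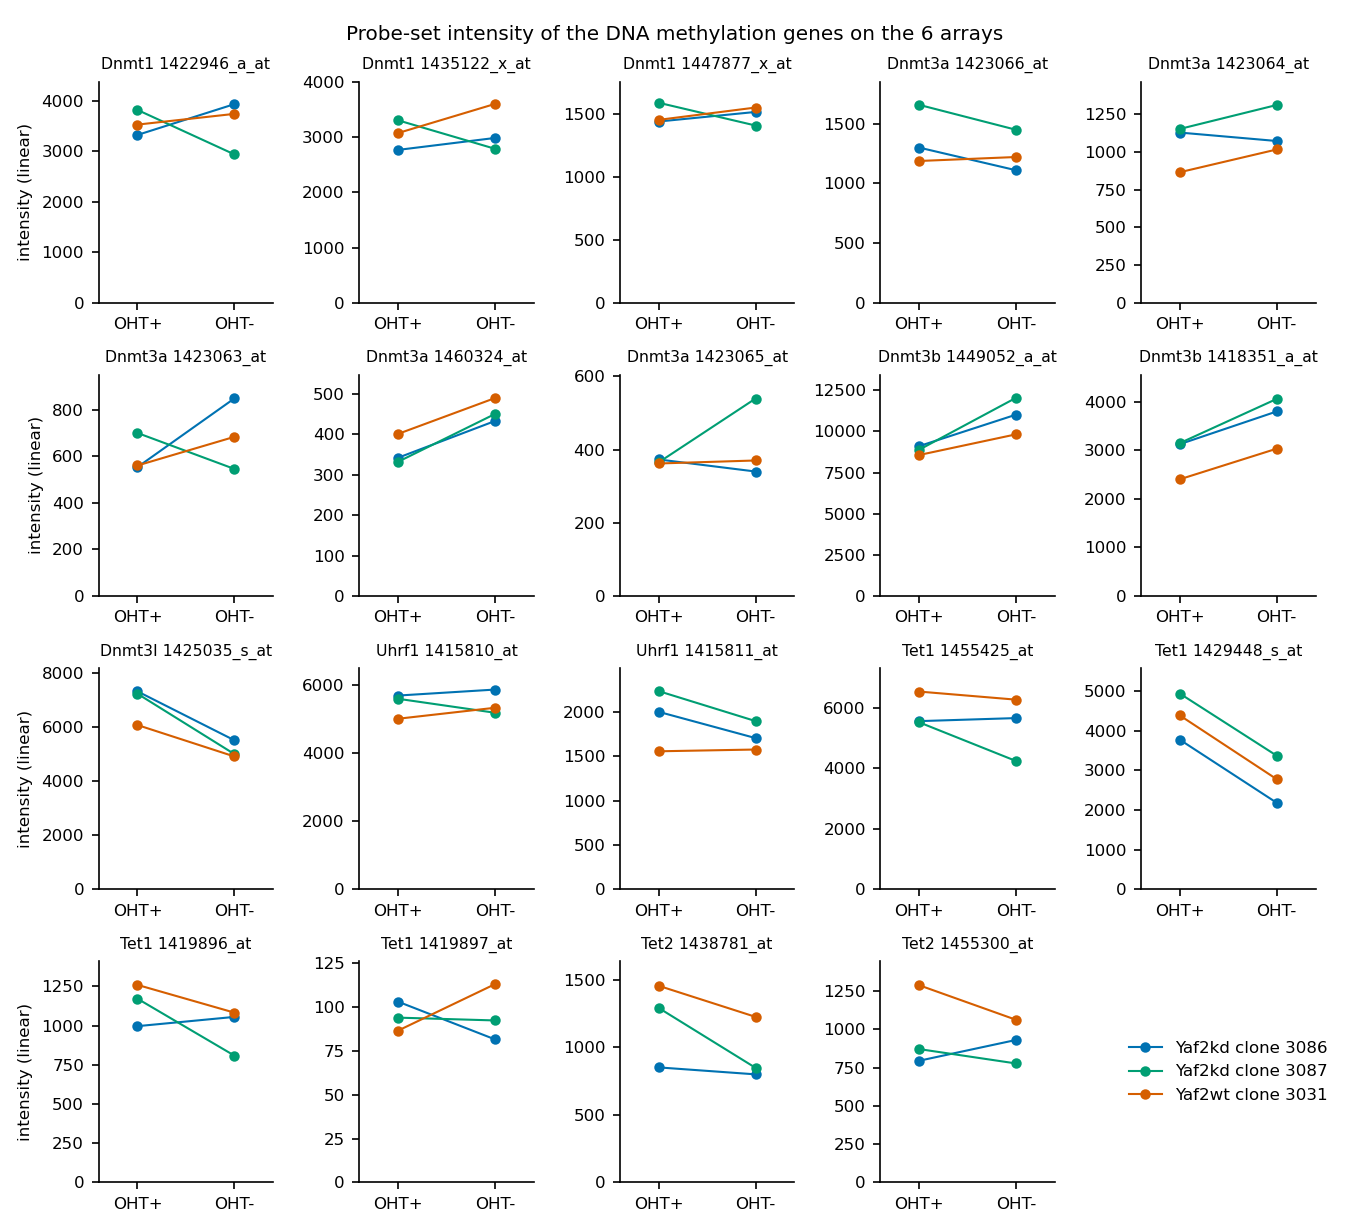
Each panel shows one probe set of a member, with linear intensity on the vertical axis starting at 0 and OHT+ left of OHT- on the horizontal axis; each line joins the 2 arrays of a clone. Dnmt3l and Tet1 1429448_s_at are higher with OHT in all 3 clones, both Dnmt3b probe sets are lower in all 3, and the lines of Dnmt1 cross.

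Dnmt3l, the partner of the de novo enzymes, was higher with OHT in every clone. Its 1 probe set (1425035_s_at) read 7331, 7243 and 6083 on the OHT+ arrays of clones 3086, 3087 and 3031, against 5517, 5005 and 4917 on their OHT- arrays. The groups do not overlap, and the lowest OHT+ array is the Yaf2wt one. The means were 6885 ± 697 with OHT and 5146 ± 324 without (SD, n = 3 each). The limma difference was 0.42 ± 0.082 (log2 ± SE, 95% interval 0.23 to 0.60), a 1.33-fold higher signal, with an adjusted p of 0.156. This was the lowest adjusted p of the 19 in this comparison. Within clones the log2 difference was 0.41 (3086), 0.53 (3087) and 0.31 (3031).

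Dnmt3b, a de novo enzyme prominent in the early embryo, was lower with OHT on both probe sets and in every clone. The brighter one (1449052_a_at) read 9109, 8890.2 and 8568 with OHT, against 11024, 12049.8 and 9826 without, in clones 3086, 3087 and 3031. Every OHT+ array is below every OHT- array, and the narrow OHT+ spread (8856 ± 272) contrasts with a wider one without OHT (10967 ± 1113, SD, n = 3 each). The difference was -0.30 ± 0.0795 (log2 ± SE, 95% interval -0.48 to -0.13, adjusted p 0.314), which leaves 80.8% of the OHT- mean. The second probe set (1418351_a_at) read 3125, 3147 and 2402 with OHT, against 3799.5, 4058 and 3033 without. Here the groups overlap, since the Yaf2wt OHT- array is below both Yaf2kd OHT+ arrays, although each clone is lower with OHT, by -0.28, -0.37 and -0.34. Its difference was -0.33 ± 0.08 (log2 ± SE, 95% interval -0.51 to -0.15, adjusted p 0.277). The 2 probe sets followed each other over the 6 arrays (Pearson r 0.90, a description over arrays that share clones).

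Dnmt3a, the second de novo enzyme, has 5 probe sets, and they did not move together. Probe set 1460324_at read 342, 332 and 401 with OHT in clones 3086, 3087 and 3031, against 433, 450.4 and 489.8 without. The groups do not overlap, and the difference was -0.36 ± 0.14 (log2 ± SE, 95% interval -0.66 to -0.05, adjusted p 0.562). The OHT differences of the other 4 were 0.13 (1423066_at, the brightest), -0.11 (1423064_at), -0.18 (1423063_at) and -0.15 (1423065_at), each with a 95% interval that includes 0 and with clones of both signs. Correlations between the 5 over the 6 arrays ran from -0.57 to 0.67. The transcripts behind each probe set are not known here, so a direction for Dnmt3a as a gene is not stated.

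Tet1 was higher with OHT on 1 of its 4 probe sets. Probe set 1429448_s_at read 3769, 4933 and 4382 with OHT in clones 3086, 3087 and 3031, against 2177, 3365 and 2772 without. Every OHT+ array is above every OHT- array, and the order of the clones is the same in both groups. The means were 4361 ± 582 with OHT and 2772 ± 594 without (SD, n = 3 each). The difference was 0.67 ± 0.16 (log2 ± SE, 95% interval 0.31 to 1.02), a 1.59-fold higher signal and the widest of the 19, with an adjusted p of 0.256. With the clone as a replicate block its SE became 0.0835 and it passed, at an adjusted p of 0.0138, where 0.224% of all probe sets passed. Over the alternatives run its adjusted p was as high as 0.758, without the intensity trend. Within clones the log2 difference was 0.79, 0.55 and 0.66 in clones 3086, 3087 and 3031.

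The brightest Tet1 probe set (1455425_at) did not share this pattern. It read 5568, 5528 and 6547 with OHT in clones 3086, 3087 and 3031, against 5669, 4244 and 6279 without. The groups overlap, and clone 3087 alone accounts for most of the difference of 0.14 ± 0.11 (log2 ± SE, 95% interval -0.10 to 0.38, adjusted p 0.797). Its correlation with 1429448_s_at over the 6 arrays was 0.04, and with 1419896_at it was 0.89. Probe set 1419896_at had a difference of 0.22 ± 0.13, with clone 3086 at -0.08. Probe set 1419897_at read between 81.5 and 113 on the 6 arrays, its mean is below the dim limit, and its difference was -0.00479 ± 0.31. A name ending in _s_at marks, in the maker's naming, a probe set whose probes match more than one transcript, so whether 1429448_s_at and 1425035_s_at read further transcripts was not tested.

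Tet2, the second eraser, was read by 2 probe sets. Probe set 1438781_at read 850.5, 1290.3 and 1454 with OHT in clones 3086, 3087 and 3031, against 799, 847 and 1224 without. Each clone is higher with OHT but the groups overlap, and the difference was 0.32 ± 0.15 (log2 ± SE, 95% interval -0.02 to 0.65, adjusted p 0.65). It was 0.13 without the OHT+ array of clone 3087, 0.17 without that clone and 0.48 without the OHT+ array of clone 3086. Probe set 1455300_at had a difference of 0.0715 ± 0.12, with clone 3086 at -0.23 and the others at 0.16 and 0.28.

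The maintenance pair, Dnmt1 and Uhrf1, had OHT differences near 0. The brightest Dnmt1 probe set (1422946_a_at) read 3324, 3819.9 and 3529 with OHT in clones 3086, 3087 and 3031, against 3935, 2938 and 3742 without. Clone 3087 is higher with OHT and the other two are lower, and the difference was 0.017 ± 0.12 (log2 ± SE, 95% interval -0.25 to 0.28). The other Dnmt1 probe sets, 1435122_x_at and 1447877_x_at, gave -0.0308 ± 0.10 and 0.00185 ± 0.0975, again with clone 3087 higher and clones 3086 and 3031 lower. Whether they also read other transcripts was not tested. Uhrf1 read 5693, 5598 and 5011 with OHT on its brighter probe set (1415810_at), against 5869, 5187 and 5334 without, a difference of -0.00799 ± 0.0833 (95% interval -0.19 to 0.18). Its second (1415811_at) gave 0.15 ± 0.10 (95% interval -0.08 to 0.38). Every 95% interval of the Dnmt1 and Uhrf1 probe sets excludes log2 differences of 0.42, that of Dnmt3l, and of -0.30, that of the brighter Dnmt3b probe set. Those values have 95% intervals of their own, 0.23 to 0.60 and -0.48 to -0.13, which some of the Dnmt1 and Uhrf1 intervals overlap. Differences between genes were not tested.

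**Figure D2:**
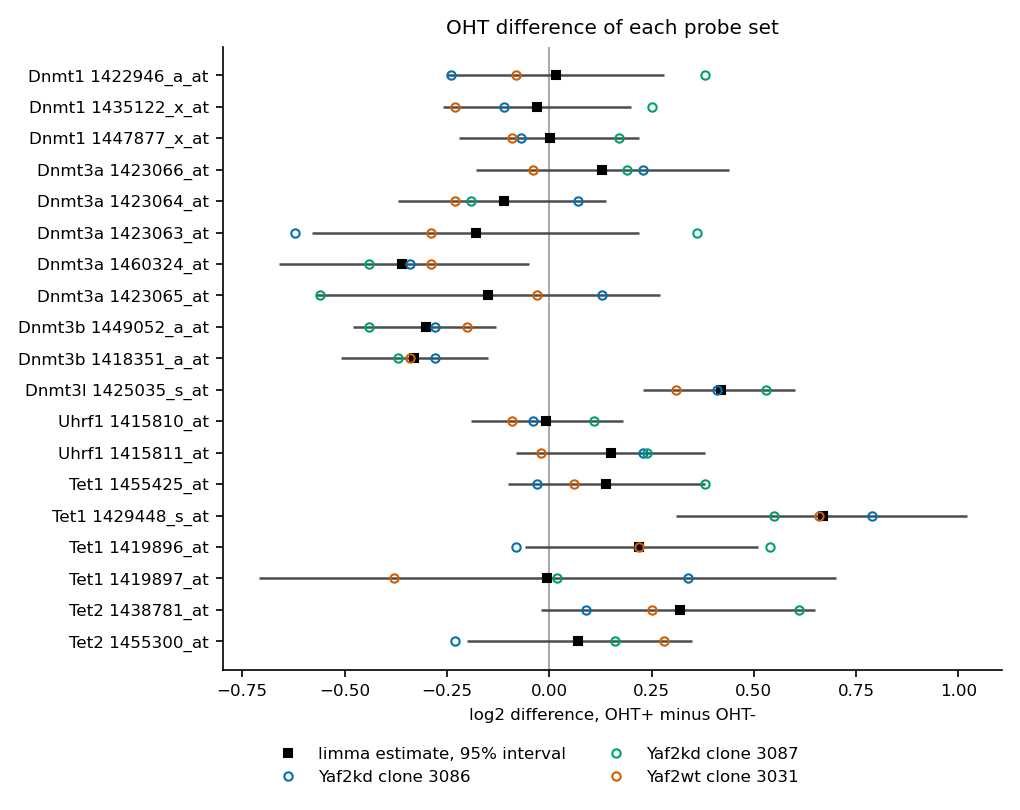
The log2 difference (OHT+ minus OHT-) is on the horizontal axis for each of the 19 probe sets; squares with bars are the limma estimate with its 95% interval, and open circles are the 3 clones. The intervals of Dnmt3l, Tet1 1429448_s_at, both Dnmt3b probe sets and Dnmt3a 1460324_at exclude 0 before adjustment, and none of the 19 passed after it.

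Of the 19 probe sets, 4 had OHT groups that do not overlap, 2 with OHT above (all probe sets 6.13%) and 2 with OHT below (all probe sets 6.4%). In either direction the background was 12.5%, and 14.3% in the brighter 50% of probe sets, where 18 of the 19 lie. Probe sets with the same sign in all 3 clones were 3 higher (all probe sets 15%) and 3 lower (all probe sets 16.2%) of the 19, beside 31.3% of all and 35.7% of the brighter ones in either direction. Both shares of members are near the background.

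Within Yaf2kd cells, 2 arrays with OHT were set against 2 without. These arrays are also part of the comparison over 3 clones. None of the 19 passed, where 0.0377% of all probe sets did, and the lowest adjusted p was 0.675. At an unadjusted p under 0.05, 2 of the 19 were higher (all probe sets 3.16%) and 2 lower (all probe sets 2.84%), together 4 beside 6% of all probe sets. With the clone as a replicate block 0 of the 19 passed (all probe sets 0.113%). With the block and the dimmer 50% of probe sets left out, an alternative chosen after seeing the data, Dnmt3l and Tet1 1429448_s_at passed over the 3 clones (adjusted p 0.0301 and 0.00386, all probe sets 1.08%) and in Yaf2kd cells (0.0486 and 0.00896, all probe sets 1.1%). Dnmt3l was at 0.47 ± 0.11, Tet1 1429448_s_at at 0.67 ± 0.21, Dnmt3b 1449052_a_at at -0.36 ± 0.11 and Dnmt3a 1460324_at at -0.39 ± 0.19 (log2 ± SE). The Tet1 value rests on few arrays: it was 0.87 and 0.48 without the OHT+ array of clone 3086 or 3087, and 0.36 and 0.99 without their OHT- arrays. Leaving out 1 array breaks the pair of its clone, so these values also hold the difference between the clones. Within clones 3086 and 3087 the Tet1 differences were 0.79 and 0.55. The Yaf2wt clone has 1 array per condition and no replicate check. Its differences were 0.31 for Dnmt3l, 0.66 for Tet1 1429448_s_at, -0.20 for Dnmt3b 1449052_a_at and -0.29 for Dnmt3a 1460324_at.

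Whether the OHT effect depends on Yaf2 status was tested as the difference of the 2 effects. In this test 0 of the 19 were past even an unadjusted p of 0.05 (2.39% of all probe sets were), and 0% of all probe sets passed the adjustment. The estimates (log2 ± SE, Yaf2kd minus Yaf2wt) were 0.16 ± 0.19 for Dnmt3l, 0.0112 ± 0.37 for Tet1 1429448_s_at, -0.16 ± 0.19 for Dnmt3b 1449052_a_at and -0.10 ± 0.33 for Dnmt3a 1460324_at. For Tet1 the 95% interval ran from -0.85 to 0.87, so in this fit without the clone block a difference as large as the OHT effect itself lies within it. With the clone as a replicate block the estimate was 0.01 ± 0.22 (log2 ± SE).

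The Yaf2 comparison, adjusted for OHT, set 4 Yaf2kd arrays against 2 Yaf2wt arrays. Of the 19 probe sets 0 passed, and 0% of all probe sets did. At an unadjusted p under 0.05, 3 were higher in Yaf2kd (all probe sets 4.58%) and 3 lower (all probe sets 4.37%), together 6 beside 8.95%, an excess that was not tested either. The median of the 19 was -0.0141, beside 0.00202 over all. The lowest adjusted p was 0.295.

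Both Tet2 probe sets had lower means in Yaf2kd cells. Probe set 1455300_at read 795, 871, 931 and 777 on the Yaf2kd arrays, against 1288 and 1062 on the Yaf2wt arrays. The groups do not overlap, and the difference was -0.48 ± 0.13 (log2 ± SE, 95% interval -0.77 to -0.18, adjusted p 0.369), which leaves 71.8% of the Yaf2wt mean. Probe set 1438781_at averaged 947 ± 230.2 on the Yaf2kd arrays (SD, n = 4) and 1339 ± 162 on the Yaf2wt arrays (SD, n = 2). It overlaps, since the OHT+ array of clone 3087 (1290.3) is above the Yaf2wt OHT- array (1224), and its difference was -0.52 ± 0.16 (95% interval -0.88 to -0.17, adjusted p 0.405). The brightest Tet1 probe set, 1455425_at, averaged 5252 ± 675 in Yaf2kd and 6413 ± 189 in Yaf2wt cells without overlap, a difference of -0.30 ± 0.12 (adjusted p 0.507). Tet1 1429448_s_at, the probe set higher with OHT, was at -0.0288 ± 0.17 in the Yaf2 comparison.

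Among the writers, Dnmt3b 1418351_a_at read 3125, 3147, 3799.5 and 4058 on the Yaf2kd arrays, against 2402 and 3033 on the Yaf2wt arrays. The difference was 0.38 ± 0.0849 (log2 ± SE, 95% interval 0.19 to 0.57, adjusted p 0.295), without overlap. The brighter Dnmt3b probe set was at 0.15 ± 0.0843 (adjusted p 0.636) and overlapped. Uhrf1 1415811_at averaged 1962 ± 221 in Yaf2kd and 1568 ± 14 in Yaf2wt cells (0.32 ± 0.11, adjusted p 0.464), and Dnmt3a 1423064_at averaged 1166 ± 102 in Yaf2kd and 940.4 ± 107 in Yaf2wt cells (0.31 ± 0.12, adjusted p 0.508). Neither overlapped. For each of these genes another probe set did overlap. Dnmt3l was at 0.18 ± 0.0869 (adjusted p 0.589), and the 3 Dnmt1 probe sets were at -0.0623, -0.17 and -0.0141. Of the 19, 3 lay wholly above in Yaf2kd (all probe sets 9.16%) and 2 wholly below (all probe sets 9%). Non-overlap in either direction held for 5, beside 18.2% of all probe sets and 22.3% of the brighter ones, so the share of members is near the background.

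**Figure D3:**
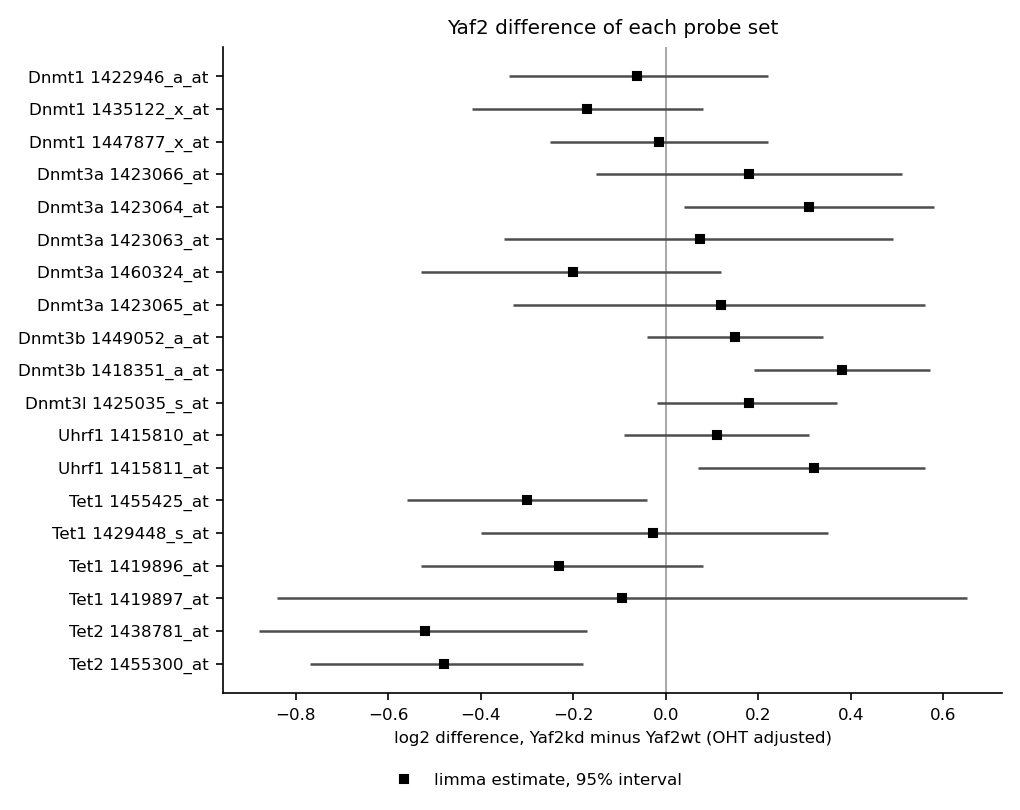
The log2 difference (Yaf2kd minus Yaf2wt, adjusted for OHT) is on the horizontal axis for the 19 probe sets, with squares for the limma estimate and bars for its 95% interval. Both Tet2 probe sets lie lowest, at -0.52 and -0.48, and Dnmt3b 1418351_a_at lies highest, at 0.38; none passed after adjustment.

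The genes whose log2 signal over the 6 arrays was most like that of a member are given as a description, since so few arrays give high correlations by choice among many genes. For the brightest probe set with the widest range, Tet2 1438781_at, these were Zscan21 (Pearson r 0.991), Nrde2 (0.989) and Nup50 (0.988). Dnmt3l and Tet1 1429448_s_at were added after their values were seen. For Dnmt3l the genes were Snrnp40 (0.996), Capn2 (0.995) and Tgm2 (0.992), and for Tet1 1429448_s_at they were Tcof1 (0.996), Plod2 (0.988) and Coro2b (0.984).

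Other genes of the pathway were read from lists, each gene by its brightest probe set. Of 10 measured further writers and cofactors, 7 were higher and 3 lower with OHT, 0 passed, and the median log2 difference was 0.06. Dppa3, which in mouse keeps Uhrf1 and Dnmt1 away from the oocyte and embryo genome, had the largest difference. It read 2757, 3391 and 2033 with OHT in clones 3086, 3087 and 3031, against 1765, 2101 and 1436 without. Each clone is higher with OHT, the groups overlap by 1 pair of arrays, and the difference was 0.61 ± 0.11 (log2 ± SE, adjusted p 0.12). With the clone as a replicate block Dppa3 passed, at an adjusted p of 0.0264. Uhrf2, a relative of Uhrf1, was at 0.16 ± 0.11. In the Yaf2 comparison Dppa3 was at 0.51 ± 0.12 (adjusted p 0.316) and 0 of the list passed.

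Further readers of methylated DNA and relatives of such readers numbered 7 measured genes. With OHT 3 of them were higher and 4 lower (median -0.0693), and 0 passed. Mbd3, a subunit of the NuRD complex, was at -0.37 ± 0.18, and Zbtb4, which is dim, at -0.44 ± 0.38. Of 9 measured further erasers and repair genes, 4 were higher and 5 lower, with a median of -0.0125 and 0 passing. Tet3, the remaining Tet gene, read between 6.59 and 41 on the 6 arrays and is dim, so its difference of 0.90 ± 0.79 is uncertain, and Apobec1, a cytidine deaminase, was at -0.29 ± 0.17. Ogt, the sugar transferase that binds Tet proteins, read 4037, 4126, 4887 and 3436 on the Yaf2kd arrays, against 6876 and 5976 on the Yaf2wt arrays. Its groups do not overlap, with a difference of -0.65 ± 0.13 (log2 ± SE, adjusted p 0.28). Ogt is at 0.0635 ± 0.12 in the OHT comparison.

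Of 7 proteins that bind unmethylated CpG, 6 were lower and 1 higher with OHT, 0 passed, and the median was -0.112. Kdm2b, which brings a Polycomb repressive complex 1 form to CpG islands, read 3327, 3134 and 3517 with OHT in clones 3086, 3087 and 3031, against 4925, 4421 and 4279 without. The groups do not overlap, and the difference was -0.45 ± 0.0913 (log2 ± SE, adjusted p 0.177). Cxxc5, another CXXC-domain protein, was at -0.35 ± 0.15. In the Yaf2 comparison 0 of these lists' genes passed. Besides Dppa3 and Ogt, the 2 largest differences of each list there included Cdca7 (0.22 ± 0.094), Mbd1 (-0.33 ± 0.19) and Cxxc5 (0.30 ± 0.16). They also included the dim Tet3 (-1.09 ± 0.83), Zbtb4 (-0.40 ± 0.40) and Cxxc4 (-1.06 ± 0.98). Among the erasers and repair genes, Gadd45b (0.43 ± 0.0965) and Apobec1 (-0.35 ± 0.18) ranked below Tet3 and Ogt. Both were larger than Cdca7, Mbd1 and Cxxc5.

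Germline genes known to be silenced through promoter methylation in mouse were, of the lists read, the one with the most genes passing with OHT. Usp17la of the 2-cell-like list passed too, and the primed epiblast and fibroblast lists, given below, leaned to one side with 0 passing. Of the 12 germline genes measured, 11 were higher and 1 lower, with a median of 1.53 beside -0.00731 over all probe sets. Asz1, Tex101 and Brdt are dim, and Brdt is the 1 that was lower. Among the 12, 6 passed, each higher with OHT, where 0.14% of all probe sets passed. Those include Slc25a31, an ADP/ATP carrier of germ cells, with 583 on average with OHT and 112 without (2.42 ± 0.24, adjusted p 0.00456). Taf7l, a germ cell transcription factor, rose by 1.92 ± 0.18, Mael, a piRNA pathway gene, by 1.77 ± 0.13 and Dazl, an RNA-binding protein of germ cells, by 1.59 ± 0.14 (log2 ± SE). Without the intensity trend of the fit, 0 of all probe sets passed. In Yaf2kd cells 11 of the 12 were higher with OHT and 1 lower, with a median of 1.31. Of the higher ones 2 passed, where 0.0377% of all probe sets passed. With the clone as a replicate block 5 of the 12 passed in Yaf2kd cells, each higher, where 0.113% of all probe sets passed. The block added Dazl (adjusted p 0.0181 with the block and 0.106 without), Taf7l (0.00886 and 0.106) and Slc25a31 (0.00467 and 0.106). In the Yaf2 comparison 0 passed. Genes known for the germline were prominent in earlier results of these data, so their direction is not independent evidence, and any tie to the members' values was not tested.

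**Figure D4:**
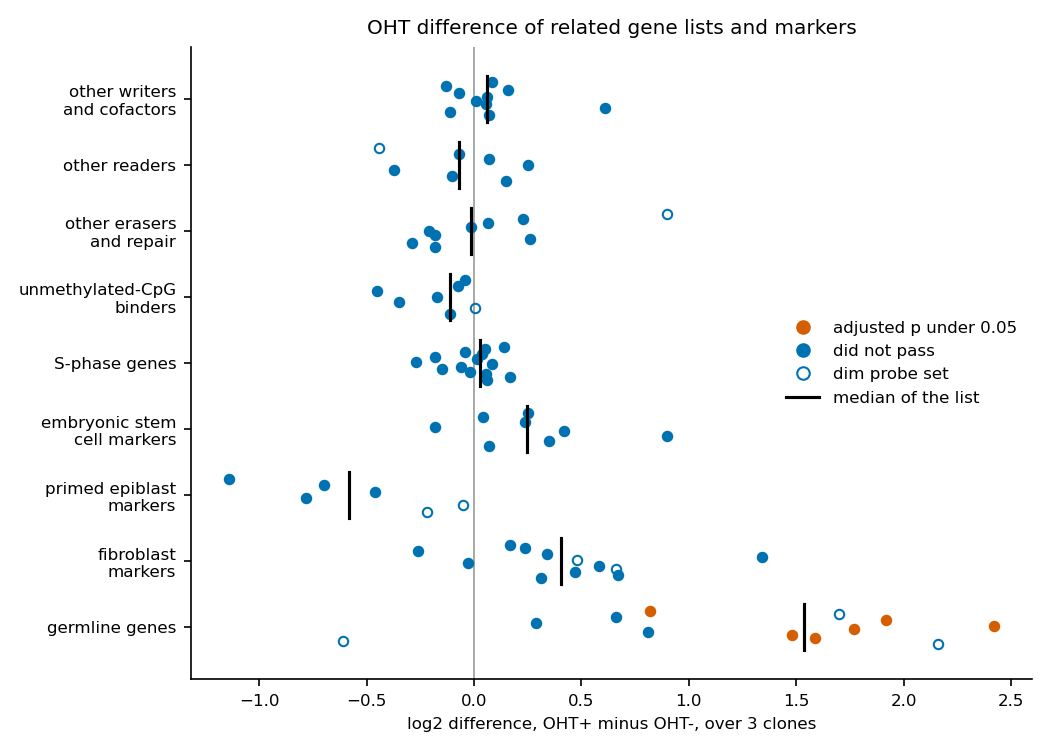
Each point is the brightest probe set of a gene, placed by its log2 difference (OHT+ minus OHT-) over 3 clones; rows are gene lists, vertical lines their medians, orange points passed an adjusted p of 0.05 and open points are dim. The 6 germline genes that passed lie between 0.82 and 2.42, while the methylation lists have medians between -0.112 and 0.06.

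Markers of other states and cells were read on the same arrays. Primed epiblast markers, of which 6 of 6 were lower with OHT and 0 passed, summed to between 1589 and 1982 on the OHT+ arrays and between 2430.2 and 3303 on the OHT- arrays. Sox3 was at -1.14 ± 0.28 and Otx2 at -0.78 ± 0.15, and Fgf5 and Cer1 are dim. Dnmt3b and Dnmt3a 1460324_at moved the same way as these markers and their part in the result was not tested. Of 8 embryonic stem cell markers 7 were higher with OHT, with sums between 94130.4 and 99213 with OHT and between 83746 and 90255 without, and 0 passed. Klf4 was at 0.90 ± 0.17 and Nanog at 0.42 ± 0.0796, and Pou5f1, the 1 that was lower, at -0.18 ± 0.13. The sums are weighted to the brightest marker, Dppa5a, which was at 0.0721 ± 0.0748. Dnmt3l and Tet1 1429448_s_at moved the same way as most of these markers, and this too was not tested.

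Fibroblast markers, which a feeder layer would add, were higher with OHT in 10 of 12 cases with a median of 0.405 and 0 passing, and Pdgfrb, a growth factor receptor of mesenchymal cells, was at 1.34 ± 0.31 and the collagen gene Col1a1 at 0.67 ± 0.23. Col3a1 and Lum are dim. The list's summed signal was between 21227 and 25338 on the OHT+ arrays and between 21214 and 25450.2 on the OHT- arrays, so the sums overlap. They are weighted to the brightest marker, Fn1, which was at -0.0264 ± 0.11 with OHT. For Pdgfrb and Col1a2 every OHT+ array was above every OHT- array (all probe sets 6.13%), and the other markers overlapped. In the Yaf2 comparison 11 of 12 were higher in Yaf2kd cells, with sums between 21712 and 25450.2 against 21214 and 21227 in Yaf2wt cells, and their part in the Yaf2 differences was not tested. Of 14 S-phase genes, read because Dnmt1 and Uhrf1 follow replication, OHT+ arrays were higher for 8 and lower for 6 (median 0.0267, 0 passing). The replication helicase subunits Mcm3 and Mcm5 were at -0.27 ± 0.11 and -0.18 ± 0.16 with OHT. In the Yaf2 comparison 10 S-phase genes were higher in Yaf2kd cells and 4 lower (median 0.0903, 0 passing). Their part in the Yaf2 differences of members was not tested. Primitive endoderm markers (3 of 6 higher with OHT, 0 passing) are dim for 4 of 6, with the adaptor gene Dab2 at -0.19 ± 0.14 and Pdgfra, which is dim, at -0.0894 ± 0.38. Of 8 listed 2-cell-like markers 4 were measured, and Tcstv1, Tcstv3 and Zfp352 among them are dim. The remaining one, the deubiquitinase gene Usp17la, rose by 3.37 ± 0.27, a size that is uncertain because its OHT- mean of 56.3 lies below the dim limit. The 3′ to 5′ signal ratio of Gapdh ran between 0.801 and 0.832 and that of Actb between 1.31 and 1.44 over the 6 arrays.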

How the data were processed

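Total RNA of 6 samples was labelled as biotin cRNA and read on Affymetrix mouse arrays, per the labels' protocols. The values deposited by the authors are linear probe-set intensity values, with Affymetrix Expression Console and RMA named in the submitters' processing notes and no version given in the sources used here. They run from 0.14 to 45795, each array has the same distribution with a median of 102, and the table holds 45101 probe sets, more than the array named in the series text would hold. Leaving out 64 controls gave 45037 probe sets, of which 34945 are annotated to 1 symbol, 932 to several and 9160 to none. The log2 of the deposited intensity was taken with no pseudocount. RefSeq gene identifiers matched for 99.4% of the probe sets with 1 symbol.

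limma 3.58.1 in R 4.3.3 (lmFit, eBayes with an intensity trend) was fitted on all probe sets, with Benjamini-Hochberg adjustment over all at 0.05. One model had Yaf2 status and OHT as terms and gave the OHT effect over 3 clones and the Yaf2 effect. A model of the 4 groups gave the others, and it takes the spread of the single Yaf2wt arrays from the Yaf2kd arrays. The trend was chosen because the median replicate SD (log2) was 0.748 in the dimmer 50% of probe sets and 0.186 in the others, divided at an intensity of 96.6. The members, gene lists, tests and the trend were chosen with earlier results of these data known. Every probe set annotated to a member was named. Of each list, up to 4 genes that passed were named, or the 2 with the largest difference where none did, for the germline, S-phase and marker lists in the OHT comparison over 3 clones only. Array values were added for Ogt, Kdm2b and Dppa3. Outside this rule, Gadd45b and Apobec1 in the Yaf2 comparison and Fn1, Col1a2, Pou5f1 and Dppa5a in the OHT comparison were also named. Likeness is the Pearson r over 6 arrays among brighter probe sets.

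The labels give the clone of each array, so the OHT+ and OHT- arrays of a clone are paired by design. The correlation of residuals between conditions was 0.152 in the Yaf2kd clones. The block on clone was an alternative, as were no trend, dim probe sets left out, 1 probe set per gene, 32 added before the log, robust fitting, and each array or clone left out. No label speaks of separate cultures within a clone, and the p-values reflect only how these samples spread. Precision is set by the small number of arrays. The fitting script was tested on simulated data.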

Additional observations from a re-analysis of the deposited data

How the results depend on the processing

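The OHT effect over 3 clones gave 63 calls over all probe sets, which became 0 without the intensity trend (2956 at an unadjusted p under 0.05), 97 with dim probe sets left out, 101 with the clone as a replicate block and 243 with both of these. It gave between 14 and 293 calls when an array or clone was left out (14 without the Yaf2wt OHT+ array, 17 without the Yaf2wt OHT- array, 21 and 17 without the first and second Yaf2kd OHT+ array, 18 without clone 3031, 205 without clone 3086 and 293 without clone 3087). The OHT effect in Yaf2kd cells gave 17 calls, which became 0 without the trend, 35 with dim probe sets left out, 9 with 1 probe set per gene, 6 with 32 added, 51 with the replicate block and 247 with dim probe sets left out and the block. Leaving out an array gave 0 to 12. The Yaf2 effect gave 0 calls in limma (4032 at an unadjusted p under 0.05), 1 with dim probe sets left out and the block, and 0 to 8 when an array was left out (8 without the first Yaf2kd OHT- array). The difference of the OHT effects gave 0 calls (1077 at an unadjusted p under 0.05) and 5 with dim probe sets left out and the block, and it could not be fitted without a Yaf2wt array. The combination of dim probe sets left out with the block was chosen after seeing the data. The causes of these shifts were not tested.

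With the replicate block Tet1 1429448_s_at passed (adjusted p 0.0138), and the block changed no other call of a member. Of the list genes Dppa3 gained a call over 3 clones, and Dazl, Taf7l and Slc25a31 gained one in Yaf2kd cells. With dim probe sets left out and the block, Tet1 1429448_s_at (adjusted p 0.00386 over 3 clones and 0.00896 in Yaf2kd cells) and Dnmt3l (0.0301 and 0.0486) passed. Tet1 1429448_s_at did not pass without clone 3031 (adjusted p 0.757). The fits without clone 3086 or without clone 3087 leave 1 array in each group, so only the size is given. When an array or clone was left out, the difference of Tet1 1429448_s_at with OHT was between 0.49 and 0.85. The differences of Dnmt3l, both Dnmt3b probe sets, Dnmt3a 1460324_at and Tet1 1429448_s_at with OHT kept their direction in every setting run, and the adjusted p of Dnmt3l over 3 clones was between 0.0301 and 0.726.

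Leaving out an array or clone turned the direction of these small differences (log2, lowest to highest). With OHT they were Dnmt1 1422946_a_at (-0.16 to 0.15), 1435122_x_at (-0.17 to 0.0683) and 1447877_x_at (-0.0845 to 0.0498), Dnmt3a 1423063_at (-0.45 to 0.0371), 1423065_at (-0.33 to 0.0541) and 1423066_at (-0.00627 to 0.21), Tet1 1419897_at (-0.18 to 0.18), Tet2 1455300_at (-0.0316 to 0.22) and Uhrf1 1415810_at (-0.0706 to 0.0331). In the Yaf2 comparison they were Dnmt1 1422946_a_at (-0.14 to 0.0389) and 1447877_x_at (-0.0861 to 0.0579), Dnmt3a 1423063_at (-0.0525 to 0.22) and 1423065_at (-0.0376 to 0.25), and Tet1 1419897_at (-0.38 to 0.19) and 1429448_s_at (-0.16 to 0.11). In the difference of the OHT effects it was Tet1 1429448_s_at (-0.30 to 0.33). None of these passed with all arrays. Of 30 member differences whose sign held, 15 moved by over 1.5 times when an array or clone was left out, among them Tet1 1429448_s_at in Yaf2kd cells (0.36 to 0.99) and Tet2 1438781_at with OHT (0.13 to 0.48). Where a single array was left out, its clone was no longer paired, so such moves can also hold differences between clones. Tet1 1419897_at lies near the dim limit and Tet3 far below it, which restricts what can be read from either.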
